A study of Saccharomyces cerevisiae with 18 samples.

Results

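Tandem intergenic regions are the stretches of the yeast genome where the end of a gene is followed by the start of the next gene on the same strand. They were taken as the intervals between neighbouring, non-overlapping nuclear protein-coding genes whose systematic names both carry W or both carry C. Of 5868 such intervals in the R64 annotation, 2828 (48.19%) were tandem, 1527 were divergent, with a start codon at both ends, and 1513 were convergent, with a stop codon at both ends. The tandem regions lay 1431 on the Watson and 1397 on the Crick strand and held 1654288 bp. A total of 4266 genes flanked them, of which 1390 served as the upstream gene of a region and as the downstream gene of another, so neighbouring members share genes.

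The study compared Saccharomyces cerevisiae strains that lack topoisomerase activity or the chromatin protein Hmo1. RNA was sequenced from wild-type, hmo1∆, top2-1 and hmo1∆;top2-1 cells moved from 28 °C to 37 °C for 60 min, and from a wild-type library at 28 °C that is labelled S phase and was compared with nothing here. For the H3 and Hmo1 samples, cells were shifted to 37 °C for 2 h 15 min. Histone H3 was immunoprecipitated from wild type and from the top2-1;top1∆ strain, each carrying a control plasmid or a plasmid that expresses TopA, the type I topoisomerase of Escherichia coli. Hmo1 was immunoprecipitated with an anti-Flag antibody from a tagged strain with the control plasmid and from a tagged top2-1;top1∆ strain with TopA, so the 2 Hmo1 lists differ in both genotype and plasmid. The title of the first Hmo1 sample names top2-1 and top1, whereas its genotype field and the series design name the tag alone; the genotype field was followed. The Top2 contact map (ChIA-PET, which ligates DNA ends held together by a precipitated protein) came from wild type at 28 °C, labelled as log cells, while its protocol describes a G1 arrest and 15 min of release. The allele top2-1 makes an enzyme that loses activity at 37 °C, so mutants and controls of the RNA, H3 and Hmo1 samples compared here were all heated.

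Each condition was 1 library, so differences between strains have no replicate check and carry no p-value. Intervals after shares of regions are exact (Clopper-Pearson) 95% binomial intervals and cover counting error only. The RNA libraries held 4752471 to 14770300 estimated counts. HMO1 had 1152 counts in wild type and 1327 in top2-1 and 0 in both hmo1∆ libraries, as labelled; its own flanks are divergent and convergent. TRP1, which lies upstream of a tandem region, was also at 0 counts in both hmo1∆ libraries, against 152 in wild type and 204 in top2-1. In bulk samples, fewer cells with a transcript and less transcript per cell cannot be told apart.

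A polymerase moving along DNA overwinds the helix ahead of it and underwinds it behind. In a tandem arrangement the overwound DNA in front of the upstream gene meets the underwound DNA behind the downstream gene, while a divergent interval receives underwinding from both sides and a convergent interval overwinding from both. Top1 and Top2 remove both kinds of supercoil, TopA removes underwinding only, and Hmo1, an HMG-box protein that binds and bends DNA, is known from the ribosomal DNA and from promoters of ribosomal protein genes. A tandem interval holds the 3′ end of a transcript and the promoter of the next.

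The tandem regions had a median length of 401 bp, with quartiles at 280 and 628.2 bp, between the divergent regions (median 511 bp) and the convergent ones (median 231 bp). Their lengths ran from 4 to 12181 bp. Of the 2828, 231 were under 200 bp, 1174 were 200 to under 400 bp, 937 were 400 to under 800 bp and 486 were 800 bp or longer. The shortest were the 4 bp between YBL008W-A and HIR1, a subunit of a nucleosome assembly complex (chromosome II, 209649 to 209652), and the 4 bp between YBR027C and ETR1 on the same chromosome (294020 to 294023). The longest was the 12181 bp between FLO1, a flocculin of the cell wall, and YAR064W (chromosome I, 208017 to 220197). It was followed by FLO5 to YHR212W-A (10122 bp, VIII), SPP382 to TUS1 (7372 bp, XII) and SWH1 to FLO1 (7217 bp, I). Another annotated feature, such as a tRNA (126 regions) or a snoRNA gene (28 regions), lay in 188 tandem regions.

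Hmo1 peaks touched a similar share of the tandem regions in both lists. In the control list 1156 regions, or 40.88% (39.06 to 42.72), overlapped a peak by at least 1 bp, and in the top2-1;top1∆ TopA list 1164 regions, or 41.16% (39.34 to 43.0). Over all 5868 intergenic regions the shares were 39.6% and 40.7%. The neighbouring classes stood apart in the control list, where 48.79% of divergent (46.25 to 51.33) and 27.76% of convergent regions (25.51 to 30.09) held a peak. In the TopA list the 3 classes were close together, with 39.82% of divergent and 40.71% of convergent regions. Over all lengths, tandem regions thus lay between the other classes in the control list and had overlapping intervals with both in the TopA list. The classes differ in length, which these shares do not account for. At 200 to under 400 bp the control shares were 32.37% (tandem), 30.21% (divergent) and 26.31% (convergent), with overlapping intervals. The TopA shares there were 36.29%, 32.5% and 43.96%. At 400 to under 800 bp the control shares were 42.37%, 51.99% and 31.09%.

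**Figure D1:**
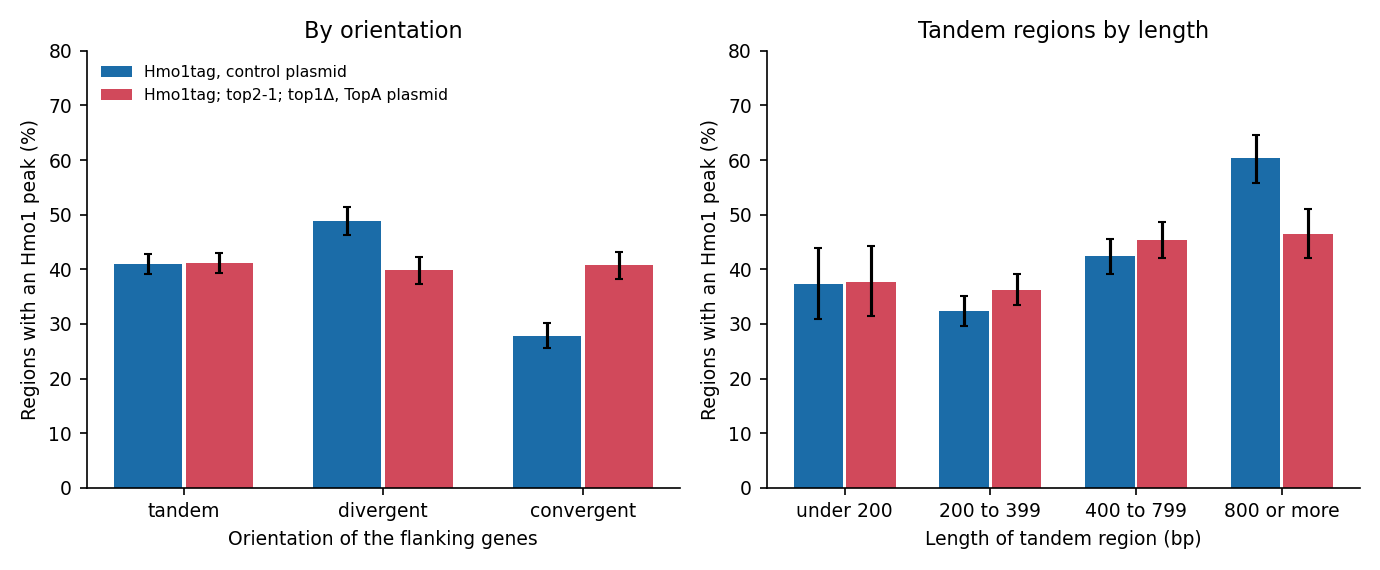
Share of intergenic regions that overlap an Hmo1 peak (%), by orientation of the flanking genes (left) and, for tandem regions only, by length in bp (right). Bars are shares in the control list (blue) and the top2-1;top1∆ TopA list (red), and error bars are exact 95% binomial intervals over regions; tandem regions stand at 40.88% and 41.16%, and those of 800 bp or more at 60.29% and 46.5%.

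The lists are of different size, with 1511 peaks of median width 1319 bp for the control and 1933 of median width 1326 bp for the TopA list, and a wide peak can cover many regions. The tandem regions were touched by 744 control peaks and 827 TopA peaks. Of these, 262 and 236 touched 2 or more tandem regions, and the peak that touched most covered 8 regions in the control list and 6 in the TopA list. Peaks covered 34.05% of tandem bases in the control list and 30.79% in the TopA list, against 31.1% and 36.2% of the bases of coding genes. A peak centre lay in 266 tandem regions (9.406%) in the control list and in 240 (8.487%) in the TopA list. Per kb, there were 0.1614 peak centres in tandem regions and 0.1114 in coding genes for the control list, and 0.1457 and 0.1646 for the TopA list. Control peaks were therefore centred more densely in tandem gaps than in genes, whereas TopA peaks were centred more densely in genes.

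Of the tandem regions, 794 held a peak in both lists, which is 68.69% of those with a control peak and 68.21% of those with a TopA peak. A further 362 had a peak in the control list alone, 370 in the TopA list alone and 1302 in neither. The share with a control peak was 37.23% under 200 bp, 32.37% at 200 to under 400 bp, 42.37% at 400 to under 800 bp and 60.29% at 800 bp or more. For the TopA list it was 37.66%, 36.29%, 45.36% and 46.5%. A longer interval offers more bases to overlap, and the share of bases covered was not highest in the longest class, with 33.82% (control) and 23.16% (TopA) in the longest class against 30.26% and 33.26% at 200 to under 400 bp.

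Along the regions, Hmo1 cover was high over the end of the upstream gene and stepped down near its stop codon. In the control list 40.84% of regions were covered 275 bp before the stop codon and 34.26% at the stop codon itself. In the TopA list the values were 42.54% and 35.04%. Toward the downstream gene the lists parted. Control cover was 32.99% at the start codon and 28.82% at 1000 bp beyond it, while TopA cover was 34.76% at both positions. Inside the gap the gradient was shallow and ran the other way in relative position: with each gap cut into 5 equal parts, the part nearest the upstream gene had 32.24% of its bases covered and the part nearest the downstream gene 35.69% in the control list. For TopA these were 29.86% and 32.5%. The 264 control peak centres in regions of at least 100 bp fell 44, 47, 55, 58 and 60 into the 5 equal parts of the gap from upstream to downstream.

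**Figure D2:**
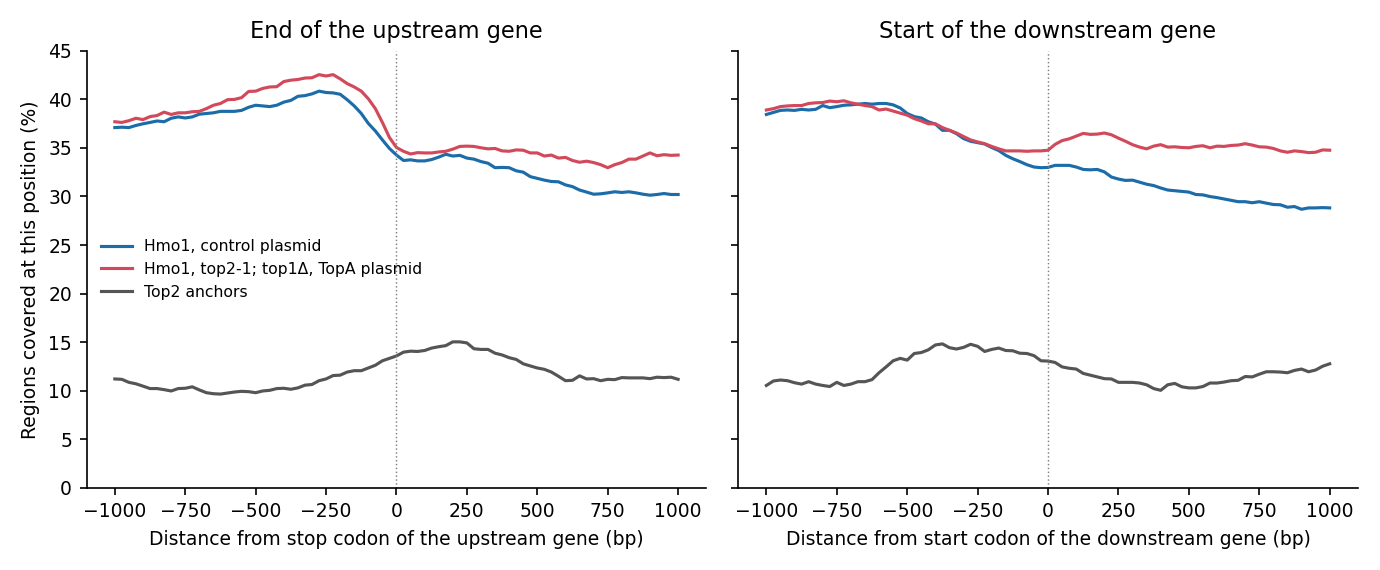
Share of the 2828 tandem regions (%) whose position at a given distance (bp) from the upstream stop codon (left) or the downstream start codon (right) is covered by an Hmo1 peak of the control list (blue), of the top2-1;top1∆ TopA list (red) or by a Top2 anchor (grey). Hmo1 cover steps down from 40.84% and 42.54% over the end of the upstream gene to 34.26% and 35.04% at the stop codon, and Top2 anchor cover is highest inside the gap at 15.03%.

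Regions were ranked by Hmo1 score only where a peak centre lay inside the gap. The first 8 of the control list were all longer than the tandem median of 401 bp. A long gap is more likely to hold a centre, so their length cannot be read as a trait of high scores. Scores are the authors' own and their scale is not stated, so they are used only to rank peaks within a list. In the control list the highest score of a peak centred in a tandem region, 2.621, belonged to the 1309 bp between SOL4, a 6-phosphogluconolactonase, and MGA1, a protein similar to heat shock factors (VII, 986740 to 988048). Its peak was 1332 bp wide and covered 80.9% of the gap, and the TopA list also placed a peak there, with a score of 1.567. SOL4 read 34.25 CPM in wild type, 234.9 in hmo1∆, 64.8 in top2-1 and 86.07 in hmo1∆;top2-1. MGA1 read 44.6, 49.85, 18.98 and 34.75 CPM in the same libraries. The upstream gene was thus high in hmo1∆, and the downstream gene was lowest in top2-1.

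The next control scores were 2.545 between NNF2 and UTP22, a factor of small-subunit assembly (VII, 659771 to 662357), and 2.479 between YOR161C-C and PNS1 (XV, 638559 to 639120). They were followed by 2.448 between the ribosomal protein genes RPS9B and RPL21A (II, 605509 to 606269) and 2.361 upstream of YER137C, where the upstream gene YER138C is a Ty element frame (V, 441820 to 443755). The remaining scores of the first 8 were 2.308 for SYC1 to GAC1, 2.296 for YNL095C to RPS7B and 2.29 for POC4 to RPL33A. PNS1 read 66.9 CPM in wild type, 155.3 in hmo1∆, 75.63 in top2-1 and 65.39 in the double mutant. GAC1, a regulatory subunit of protein phosphatase 1, read 49.42, 115.8, 51.46 and 78.79 CPM. Both were more than 2-fold higher in hmo1∆ than in wild type, with log2 ratios of 1.21 and 1.22. RPL21A stayed between 661.7 and 768.1 CPM in the 4 libraries at 37 °C, and UTP22 between 75.77 and 106.3 CPM.

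In the TopA list the highest score was 1.785, in the 965 bp between the rRNA methylase gene DIM1 and DIP5, a permease for acidic amino acids (XVI, 40078 to 41042). Scores of 1.638 upstream of RPS8A, 1.618 upstream of the hexokinase gene HXK1, 1.599 upstream of RPL12A and 1.567 upstream of MGA1 came next. All 5 regions also overlapped a control peak. DIP5 read 83.67 CPM in wild type, 58.25 in hmo1∆, 94.61 in top2-1 and 92.77 in the double mutant, a range under 2-fold.

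Ribosomal protein genes stood downstream of 60 tandem regions, out of 137 such genes in the genome, and 43 of these regions (71.67%) held a control peak against 40.88% of all tandem regions. The TopA list had a peak in 44 of the 60, and 37 had a peak in both lists. A peak centre lay in 14 (control) and 16 (TopA) of them. The lists of genes with related roles differed. Glycolysis genes, which were among the most abundant transcripts, had control peaks in 11 of 12 regions and TopA peaks in 10. Genes of the general stress response had them in 23 and 22 of 28. Genes for ribosome assembly factors had them in 11 and 14 of 50, and genes for mitochondrial ribosomal proteins in 2 and 6 of 27. The single histone gene downstream of a tandem region had none. Region length differed between these lists, with medians of 664.0 bp for glycolysis, 547.5 bp for ribosomal proteins and 342.0 bp for assembly factors, and its part was not tested.

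The share of regions with an Hmo1 peak also differed with the level of the downstream gene. The 2678 regions whose downstream gene passed the count filter (a mean of at least 20 counts) were ranked by its TPM in wild type at 37 °C and split into 4 groups of equal size. Control peaks lay in 35.82% (32.19 to 39.58) of the lowest group, 33.78% of the second, 41.26% of the third and 51.79% (47.93 to 55.63) of the highest. The TopA list gave 36.27%, 35.72%, 41.7% and 51.49%. The median region was 432.5 bp long in the lowest group and shorter, 401.0 bp, in the highest. Top2 anchors did not differ in this way, at 29.1%, 30.49%, 27.06% and 27.16% with overlapping intervals.

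**Figure D3:**
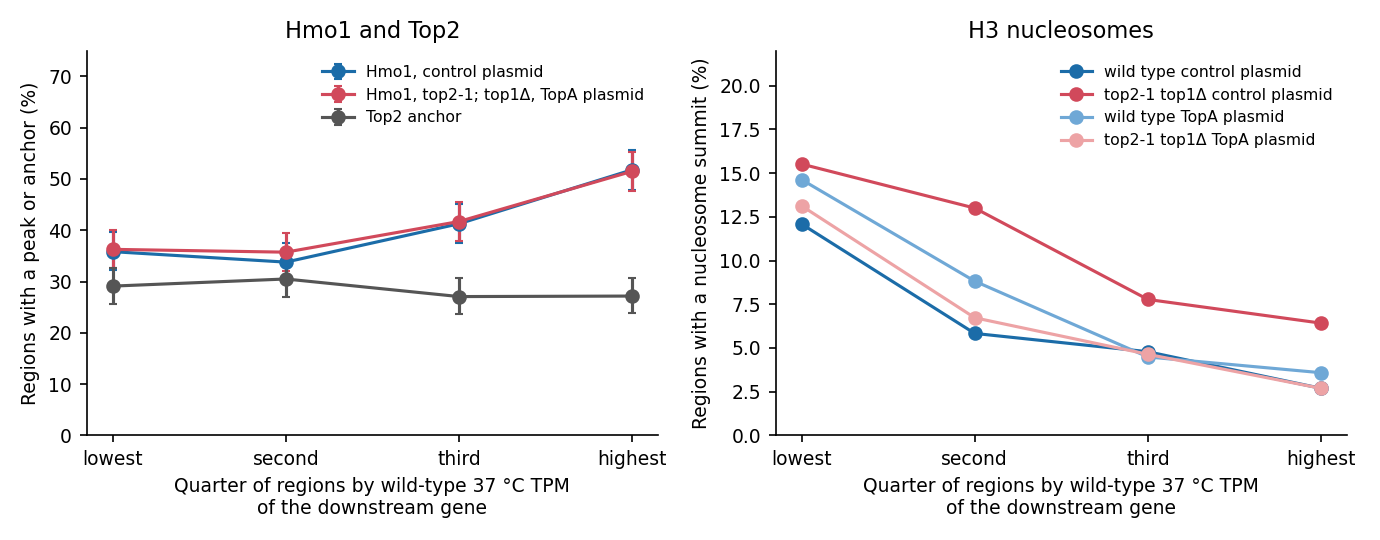
Share of tandem regions (%) with an Hmo1 peak or a Top2 anchor (left, error bars are exact 95% binomial intervals) and with an H3 nucleosome summit (right, 4 lists), in 4 equal groups of regions by the wild-type 37 °C TPM of the downstream gene. Hmo1 shares are highest in the highest group (51.79% and 51.49%), and summit shares are lowest there, 2.687% to 6.418%.

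Histone H3 nucleosomes were scarce in tandem regions in all 4 lists. Each list gives called nucleosomes of 148 bp with a summit, and a region was scored by the summits inside it. With the control plasmid, wild type had 459 summits in tandem regions, 0.2775 per kb, and top2-1;top1∆ had 619, 0.3742 per kb. With only the nucleosomes at or above the median summit value of each list the order turned, to 0.1318 and 0.1094 per kb. With TopA, wild type had 563 summits, 0.3403 per kb, and top2-1;top1∆ had 637, 0.3851 per kb. Coding genes held 2.4, 2.335, 2.712 and 1.084 summits per kb in the same order. Tandem density relative to coding genes was thus 0.1156, 0.1602 and 0.1255 in the first 3 lists and 0.3552 in the top2-1;top1∆ TopA list.

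That last list holds 10841 nucleosomes against 21862 to 25035 in the others and is spread unevenly over chromosomes. Its density was the lowest of the 4 lists in genes and the highest in tandem gaps. Across the 16 chromosomes the ratio to coding genes ran from 0.1156 to 1.307 in that list, and from 0.04063 to 0.4751 in the wild-type control list. The lowest summit value kept is 1.0 in both wild-type lists and 1.4 in both mutant lists, and what these cut-offs do to the difference between strains was not tested.

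Only a minority of tandem regions held any summit. There were 211 in the wild-type control list (7.461%; 6.519 to 8.492), 338 in top2-1;top1∆ control (11.95%; 10.78 to 13.2), 257 in wild-type TopA (9.088%; 8.053 to 10.21) and 229 in top2-1;top1∆ TopA (8.098%; 7.118 to 9.165). Over all intergenic regions the shares were 7.34%, 11.9%, 9.42% and 7.67%, so the tandem shares were near the background in each list. In 2281 tandem regions (80.66%) no list placed a summit, and in 92 all 4 did. With the control plasmid, 205 regions had a summit in top2-1;top1∆ and not in wild type, and 78 the reverse. Divergent regions went from 8.251% in wild type to 17.81% in top2-1;top1∆ with the control plasmid, and convergent regions from 6.213% to 5.882%. The tandem difference of 7.461% to 11.95% lay between them, and its intervals did not overlap.

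Most summits sat in long gaps. In regions of 800 bp or more, 29.42%, 34.36%, 33.54% and 27.16% held a summit in the 4 lists, against 0.8518%, 4.259%, 1.704% and 2.129% at 200 to under 400 bp. In the shorter class the top2-1;top1∆ control list stood above the others, with 50 of 1174 regions (interval 3.177 to 5.577) against 10 in the wild-type control list (0.4092 to 1.561). The 5 regions richest in summits held 15.25% of all tandem summits in wild type with the control plasmid, led by FLO1 to YAR064W with 20 and SWH1 to FLO1 with 18. FLO1 to YAR064W led every list, with 23, 26 and 28 summits in the other 3.

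The gap between the genes was visible from both sides. Summit density in the wild-type control list was 2.433 per kb in the bin that starts 300 bp before the upstream stop codon and 0.1132 per kb in the bin from 200 bp after it. Around the downstream start codon it was lowest at 0.08487 per kb, in the bin that starts 150 bp upstream, and was higher in each 50 bp bin over the first 200 bp of the gene. Within 500 bp inside the gene, the density was highest in the bin that starts at 400 bp in that list, at 2.291 per kb, in the bin from 150 bp in top2-1;top1∆ with the control plasmid, at 2.914 per kb, and in the bin from 250 bp in wild type with TopA, at 2.822 per kb. The first summit, searched from 100 bp upstream of the start codon to 1000 bp downstream, lay at a median of 305 bp in wild type and 227 bp in top2-1;top1∆ with the control plasmid, and at 255 and 230 bp with TopA. These medians cover only regions with a summit in that window. In the order wild-type control, mutant control, wild-type TopA and mutant TopA there were 2312, 2299, 2480 and 1186 such regions. The mutant TopA median thus rests on far fewer regions. Of all 2828 tandem regions, the first summit lay within 150 bp of the start codon in 16.87%, 24.47%, 22.17% and 14.29%, in the same order.

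**Figure D4:**
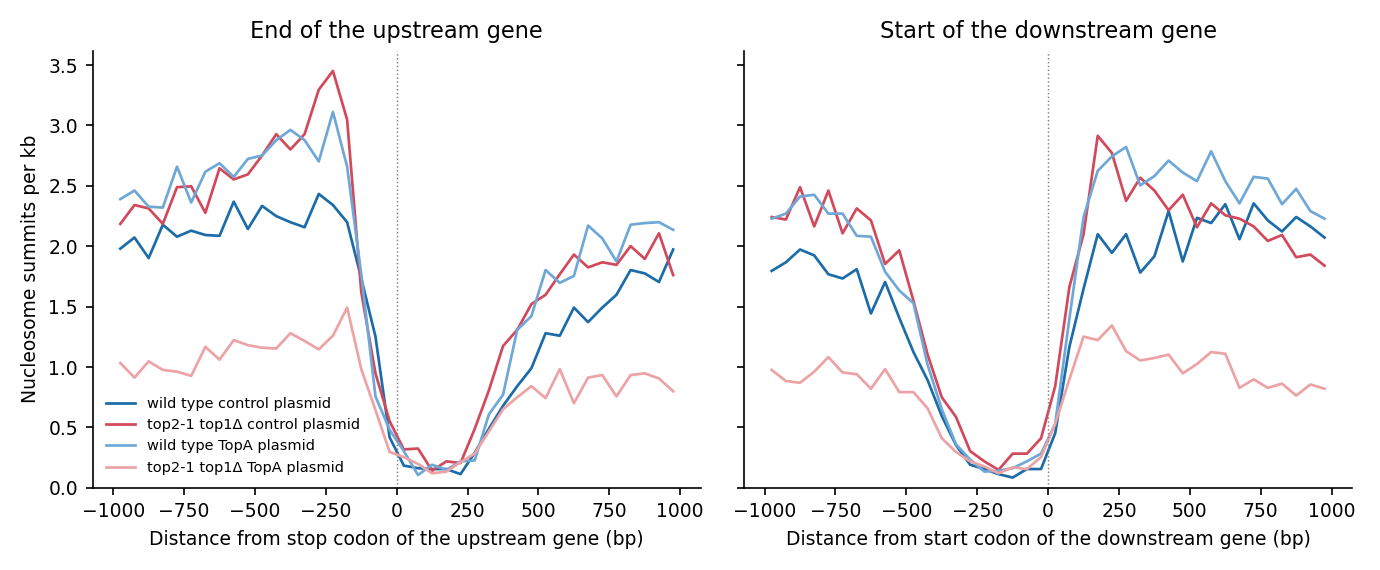
H3 nucleosome summits per kb in bins of 50 bp around the stop codon of the upstream gene (left) and the start codon of the downstream gene (right) of the 2828 tandem regions, 1 line per list. All 4 lines fall to under 0.15 per kb in the gap, and the top2-1;top1∆ TopA line, from the shortest list, is lowest over genes.

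Summits were less frequent before more highly expressed genes. In wild type with the control plasmid, 12.09% of regions before the least expressed of the 4 groups of downstream genes held a summit and 2.687% of those before the most expressed group. In top2-1;top1∆ with the control plasmid the values were 15.52% and 6.418%, with TopA in wild type 14.63% and 3.582%, and with TopA in top2-1;top1∆ 13.13% and 2.687%. Regions with and without a control Hmo1 peak had 0.3 and 0.2555 summits per kb in the wild-type control list, 0.4286 and 0.3211 in the mutant control list and 0.3588 and 0.3223 in the wild-type TopA list. The short mutant TopA list alone went the other way, with 0.3037 and 0.4643. Regions with a control peak were also longer, with medians of 460 and 369 bp. Density itself differed with length: in the wild-type control list it was 0.02855 per kb at 200 to under 400 bp and 0.4912 at 800 bp or more. The part of length in the contrast by Hmo1 peak was not tested.

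Top2 anchors, the DNA ends joined in the contact map, overlapped 795 tandem regions (28.11%; 26.46 to 29.81), against 26.2% of all intergenic regions. The share was 26.2% for divergent (24.0 to 28.48) and 22.74% for convergent regions (20.65 to 24.93). By length it was 19.48%, 23.25%, 29.14% and 41.98% from the shortest to the longest class. The share of bases covered was 15.33%, 14.85%, 13.95% and 11.81% in the same order, so per base the anchors were not denser in long gaps. Anchor cover was highest 200 bp past the upstream stop codon, at 15.03%, and was lower inside both genes. Regions with a control Hmo1 peak had an anchor in 30.8% (28.14 to 33.55) and those without in 26.26% (24.16 to 28.44), and they were also longer, with medians of 460 and 369 bp. The genome build of these coordinates is not stated and was taken as the R64 build of the other files.

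Of the 1887 Top2 clusters, 801 (42.45%) had an end on a tandem region and 106 joined a pair of tandem regions, 97 of them on the same chromosome. In 81 clusters, over 80 genes, the ends lay on the tandem regions on either side of a single gene, with 2 to 5 paired-end tags each. Most regions rested on few tags, since 683 of the 795 had a single cluster. The most tags, 27 each, were counted for 3 regions. They lay on both sides of URA3, which encodes the decarboxylase of pyrimidine synthesis (GEA2 to URA3, V, 115801 to 116166; URA3 to TIM9, 116971 to 117210), and between PDX1 and TDH3, a glyceraldehyde-3-phosphate dehydrogenase gene (VII, 883811 to 884508). All 3 shared a single cluster of 25 tags, the strongest of the 1887, that joined an anchor spanning URA3 on chromosome V to the region before TDH3 on chromosome VII. KEI1 to YPR1 had 16 tags and FAA3 to URM1 had 10. The region YCL001W-B to YCR001W had 9 (III, 114025 to 115684), an interval known to hold the centromere of chromosome III, and no list placed a nucleosome summit or an Hmo1 peak there. As a downstream gene, URA3 read 113.5 CPM in wild type, 391.3 in hmo1∆, 102.3 in top2-1 and 152.2 in the double mutant.

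Neighbours in a tandem pair had nearly unrelated levels. Per length, in wild type at 37 °C, the median was 55.38 TPM for upstream and 52.25 TPM for downstream genes of the 2504 pairs with both genes above the count filter. The downstream gene was the higher in 1243 pairs and the upstream gene in 1261. The rank correlation of the levels was 0.0825 over tandem pairs, 0.119 over divergent and 0.0828 over convergent pairs. These are descriptions over pairs of a library, and pairs share genes.

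Without Hmo1, a larger share of downstream genes was past 2-fold on the high side where the region carried an Hmo1 peak. In hmo1∆ relative to wild type, 7.13% of the 6085 genes tested were past 2-fold on the high side and 5.19% on the low side. Downstream of tandem regions, 210 of 2678 genes (7.84%) were higher and 111 (4.14%) lower. Where the region held a control peak, 124 of 1089 (11.4%) were higher and 44 (4.04%) lower. Where it held none, 86 of 1589 (5.41%) were higher and 67 (4.22%) lower. With a peak in both lists, 100 of 748 (13.4%) were higher and 23 lower. The median log2 ratio was 0.10 (0.05 to 0.14) with a control peak, -0.05 (-0.08 to -0.02) without and 0.00 over all genes. These counts depend on the scaling, since library totals in place of TMM moved the median of all genes to -0.249 and gave 135 higher and 218 lower downstream genes. The gap kept its direction: with totals 86 of the 1089 genes with a control peak were higher and 87 lower, against 49 and 131 of the 1589 without. With TPM these were 79 and 94, against 38 and 144. The intervals of medians are 95% order-statistic intervals over genes of 1 pair of libraries.

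For upstream genes both lists went the same way, with a wider gap in the TopA list. With a control peak in the region 97 of 1037 (9.35%) were at least 2-fold higher in hmo1∆, and without it 105 of 1578 (6.65%), with medians of 0.06 and -0.01. With a TopA-list peak 110 of 1067 (10.3%) upstream genes were higher, against 92 of 1548 (5.94%) without, and the medians were 0.129 and -0.045. The same split of downstream genes gave 121 of 1106 (10.9%) and 89 of 1572 (5.66%), with medians of 0.100 and -0.063. Whether upstream and downstream genes differ in this was not tested. Of the upstream genes as a whole, 202 of 2615 were higher and 131 lower, and with library totals 128 and 254. Leaving out the genes of the stress response list, 104 downstream genes with a control peak remained at least 2-fold higher, against the 124 of 1089 above. The list holds 23 of those 1089 genes, 20 of them higher. It holds 5 of the 1589 downstream genes without a control peak, 4 of them among the 86 that were higher. Over all genes tested 7.13% were higher.

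In the top2-1 background the same loss of Hmo1 gave smaller numbers. The background was 3.76% higher and 3.75% lower in hmo1∆;top2-1 against top2-1. With a control peak 55 of 1089 downstream genes (5.05%) were higher and 28 lower, and without it 33 of 1589 (2.08%) were higher and 46 (2.89%) lower. With library totals the counts were 47 and 34 with a peak and 23 and 56 without. Of all downstream genes 88 were higher and 74 lower, and with totals 70 and 90. This comparison shares no library with hmo1∆ against wild type.

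Few genes differed in top2-1 alone. In top2-1 against wild type 1.53% of all genes were past 2-fold on the high side and 0.855% on the low side, and downstream of tandem regions 24 (0.896%) were higher and 8 (0.299%) lower, both under the background. In cells without Hmo1, hmo1∆;top2-1 against hmo1∆, 1.73% of all genes were higher and 2.48% lower. Downstream of a region with a control peak 50 of 1089 genes (4.59%) were lower and 5 higher, and without a peak 24 of 1589 (1.51%) were lower and 13 higher. With library totals, which moved the median of all genes to 0.187, 33 of the 1089 were lower and 24 higher, and 14 of the 1589 were lower and 30 higher. Over all downstream genes, 18 higher and 74 lower became 54 and 47. The hmo1∆ library enters that ratio and the ratio of hmo1∆ to wild type with opposite sign, so these ratios cannot be read as separate support.

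**Figure D5:**
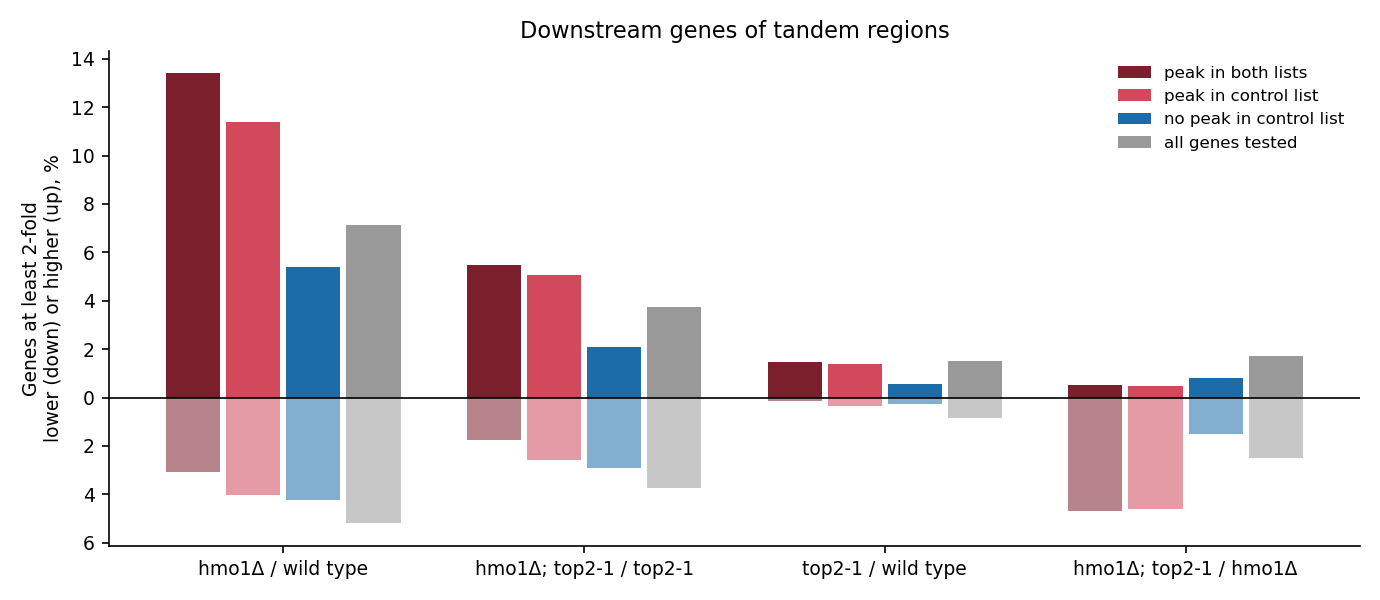
Percentage of genes at least 2-fold higher (bars up) or lower (paler bars down) in 4 comparisons of single RNA libraries at 37 °C, for downstream genes of tandem regions with an Hmo1 peak in both lists, in the control list or not in the control list, and for all 6085 genes tested. In hmo1∆ against wild type 13.4%, 11.4% and 5.41% were higher, against 7.13% of all genes.

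The next genes are named by rank among downstream genes of regions with a peak in both lists, and RTN2, TFS1 and HSP26 are also members of the stress response list. SPG4, a gene needed in stationary phase, read 4.103 CPM in wild type, 180.6 in hmo1∆, 25.95 in top2-1 and 57.54 in the double mutant, a log2 ratio of 5.38 in hmo1∆ (95% counting interval 4.87 to 6.12). FMP45 read 26.94, 629.5, 44.49 and 244.2 CPM, a log2 ratio of 4.53. RTN2, a reticulon of the endoplasmic reticulum, read 35.32, 741.5, 33.51 and 218.0 CPM, a log2 ratio of 4.38. TFS1, an inhibitor of carboxypeptidase Y, read 156.6, 2593, 304.7 and 1052 CPM, a log2 ratio of 4.05. All 4 genes were highest in hmo1∆ and lower, though still above wild type, in hmo1∆;top2-1. They were picked for high ratios of hmo1∆ to wild type, so this order is not independent of that choice. HSP26, a small heat shock protein, read 435.6, 6048, 1091 and 2375 CPM. HXT6 had 0 counts in wild type and 936 in hmo1∆, at least 249-fold higher when the floor of 3 counts in wild type is used, but its reads can be split with the near-identical HXT7, so its value is uncertain.

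Where the upstream neighbour of these genes passed the count filter, it differed little. The log2 ratio in hmo1∆ was -0.12 for CDC13, upstream of FMP45, -0.17 for YBR071W, upstream of HSP26, and 0.50 for YLR179C, upstream of TFS1. At the low end were RPL31B, at 120.6 CPM in wild type, 28.91 in hmo1∆, 118.5 in top2-1 and 52.37 in the double mutant, and DFR1, the dihydrofolate reductase, at 48.52, 13.39, 72.51 and 21.92 CPM. CIS3, a cell wall protein, read 307.6, 86.88, 239.5 and 118.5 CPM, and the cohesin subunit MCD1 79.03, 26.21, 53.68 and 39.73 CPM. RPL31B, DFR1 and CIS3 were low in both hmo1∆ libraries and high in both others. The lowest ratios in that ranking, -3.64 for YDR034C-D and -3.18 for YMR045C, belong to frames of the repeated Ty1 element, whose reads the counting may have divided among copies.

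Between hmo1∆;top2-1 and top2-1, SHM2, the cytosolic serine hydroxymethyltransferase, read 1799 against 390.1 CPM and ADE17, a purine synthesis enzyme, 999.2 against 305.9 CPM. Their wild-type values were 256.2 and 201.2 CPM and their hmo1∆ values 1663 and 926.0 CPM, so both genes were high wherever Hmo1 was missing. TRX1, a thioredoxin, read 33.89 CPM against 81.56 in top2-1. In top2-1 against wild type, among regions with a peak in both lists, the lowest ratio was that of MGA1, -1.22 (-1.55 to -0.92), and the highest after SPG4 were RGI1, at 98.17 CPM against 30.51, and HOR7, at 241.4 against 87.77 CPM. TIM9, a chaperone subunit of mitochondrial import, was higher in hmo1∆;top2-1 than in hmo1∆, 48.63 against 21.79 CPM, while its upstream neighbour URA3 was lower, with a log2 ratio of -1.36.

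The functional lists differed in hmo1∆ relative to wild type, where 7.13% of all genes tested were at least 2-fold higher and 5.19% lower. Of 28 stress response genes downstream of tandem regions, 24 were at least 2-fold higher in hmo1∆ and none lower, with a median log2 ratio of 1.55. In hmo1∆;top2-1 against hmo1∆, 18 of the 28 were at least 2-fold lower, against 2.48% of all genes, and 13 were with library totals. The single hmo1∆ library enters these 2 ratios with opposite sign, so they cannot be read as separate support. In the top2-1 background 6 were higher and 1 lower, with a median of 0.50, against 3.76% higher and 3.75% lower over all genes. The 23 genes with a control peak had a median of 1.59 and the 5 without had 1.40. With library totals 18 of the 28 were at least 2-fold higher, with a median of 1.29. Ribosome assembly genes had a median of -0.51, with 4 of 50 at least 2-fold lower, against 5.19% of all genes. RRP1 led these, at 116.8 CPM in wild type and 37.74 in hmo1∆. With library totals, which moved the median of all genes to -0.249, 12 of the 50 were at least 2-fold lower. Mitochondrial ribosomal protein genes had a median of -0.42 and none of 27 past 2-fold, and glycolysis genes a median of 0.51, with HXK2 alone past 2-fold, at 1253 CPM in wild type and 524.9 in hmo1∆.

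Few of the 60 ribosomal protein genes passed 2-fold in hmo1∆. There 2 were higher and 3 lower, shares under the 7.13% and 5.19% of all genes, with a median of 0.10 that turned to -0.15 with library totals and -0.25 with TPM. The 43 with a control peak had a median of -0.01 and ranged from -2.05 (RPL31B) to 0.73 (RPS7B), and the 17 without a peak had a median of 0.51 and ranged from -1.17 (RPL9B) to 1.32 (RPS21A). With library totals the medians were -0.26 and 0.25. RPS21A read 190.9 CPM in wild type, 478.6 in hmo1∆, 191.1 in top2-1 and 496.1 in the double mutant. RPL9B read 628.8, 279.9, 631.5 and 242.9 CPM. These genes have near-identical paralogs, and reads shared with a paralog make single values uncertain.

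The ratios of the genes of a tandem pair were weakly related. The rank correlation of the log2 ratios of the upstream and downstream gene in hmo1∆ against wild type was 0.125 over 2504 tandem pairs, 0.121 over 1336 divergent and 0.0164 over 1398 convergent pairs. It was 0.318 for the 157 tandem pairs less than 200 bp apart, 0.0731 at 200 to under 400 bp, 0.0799 at 400 to under 800 bp and 0.214 for the 390 pairs 800 bp or more apart. Both genes were at least 2-fold higher in 24 of the 2504 tandem pairs and lower in 14, and they went opposite ways in 13. The same counts were 14, 7 and 5 of the 1336 divergent pairs and 6, 5 and 7 of the 1398 convergent pairs. Whether tandem pairs differ in this from the others was not tested. For hmo1∆;top2-1 against top2-1 the correlation over tandem pairs was 0.0768, with 7 pairs higher, 6 lower and 4 opposite. Divergent pairs had 6, 6 and 0 in that comparison, and convergent pairs 2, 4 and 3. For top2-1 against wild type the tandem correlation was 0.0513, with 1 pair higher. For hmo1∆;top2-1 against hmo1∆ it was 0.0198, with 3 pairs lower and 2 opposite. In these 2 comparisons divergent pairs had 0.0742 and 0.104, and convergent pairs 0.033 and 0.0335.

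The pairs in which both genes were furthest past 2-fold in hmo1∆ were all higher. After HXT6 and HXT7, whose reads cannot be told apart with certainty, came FMP45 and HBT1 (IV, 60406 to 60871). HBT1 read 92.23 CPM in wild type, 1044 in hmo1∆, 143.5 in top2-1 and 264.4 in the double mutant. Their 466 bp region was covered in full by an Hmo1 peak in both lists and joined by a Top2 cluster of 2 tags. COS4 and DDI3 (VI, 7566 to 9544) had log2 ratios of 1.95 and 2.48 and no Hmo1 peak in either list. YNL194C and YNL195C (XIV, 272309 to 272709) had 1.94 and 2.26 and a peak in the TopA list alone. GCV1, of the glycine cleavage complex, and MLG1 (IV, 483861 to 484162) had 2.35 and 1.61 and a peak in the control list alone. PAL2 and HXT5, a hexose transporter (VIII, 296448 to 297384), had 1.55 and 2.16 and lay within a peak of both lists. Of these 6 pairs, 2 thus had a peak in both lists and 2 in neither.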

How the data were processed

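The members, gene lists and comparisons were chosen with earlier results of these data known. The authors deposited RSEM expected counts and TPM per gene, aligned with STAR to R64 per the submitters' processing notes; H3 nucleosome lists, Hmo1 peak lists and Top2 clusters. The deposited H3 lists give a summit signal and a fuzziness score per nucleosome, and the Hmo1 lists a score per peak, from alignments handled with Picard, SAMtools and deepTools per the submitters' notes. For Top2 the authors deposited clusters with a count of paired-end tags; the notes name BWA, bedtools, cutadapt and Picard. The peak and nucleosome callers are not given in the sources used here. ChIP inputs were not analysed here. Expected counts were rounded, and the 6085 genes that averaged 20 or more over the 5 RNA libraries were kept. TMM factors came from those genes (edgeR 4.0.16, R 4.3.3). Log2 ratios of CPM used a prior count of 2. With 1 library per condition nothing was tested, and a 2-fold difference is a rule of size. The steps were checked on simulated data. Of the flanking genes, 2678 of 2828 downstream and 2615 of 2828 upstream genes passed the filter.

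Gene spans come from the RefSeq table of R64 and include introns. Overlaps need at least 1 bp, and a summit or peak centre had to lie inside the region. Medians have order-statistic intervals. RPP1 and MRP8, which encode no ribosomal proteins, were taken out of the ribosomal lists after their first use. Named regions were the 8 (control) and 5 (TopA) with the highest scores among peaks centred in the region, the 6 with most Top2 tags, the 4 longest and 2 shortest, the 6 pairs with both genes furthest past 2-fold, and from each RNA comparison some of the 6 highest and 6 lowest downstream genes of regions with a peak in both lists; per gene list the 3 highest and 3 lowest. Python 3.11.15 with SciPy 1.17.1 was used.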

Additional observations from a re-analysis of the deposited data

Results flagged for a closer look

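The share of tandem regions with any nucleosome summit differed in opposite directions between top2-1;top1∆ and wild type under the 2 plasmids. With the control plasmid the share of tandem regions with a summit was 4.49 percentage points higher in top2-1;top1∆ than in wild type, and with TopA the difference was -0.99 points, with overlapping intervals (7.118 to 9.165 in the mutant, 8.053 to 10.21 in wild type). The shares over all intergenic regions, which include the tandem ones, were 7.34% and 11.9% with the control plasmid (wild type first). With TopA they were 9.42% and 7.67%. Divergent regions also differed in opposite directions, with 8.251% and 17.81% under the control plasmid and 12.25% and 9.889% under TopA. Convergent regions did not, and were lower in the mutant under both plasmids, with 6.213% and 5.882%, and 7.204% and 4.627%. Tandem summits per kb were higher in the mutant under both plasmids, 0.3742 against 0.2775 and 0.3851 against 0.3403. The mutant TopA list holds 10841 nucleosomes and the other 3 hold 21862 to 25035, and the difference between plasmids was not tested.

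Among the genes named by rank, HSP26 and SPG4 went opposite ways when Top2 was inactivated with and without Hmo1. HSP26 had a log2 ratio of 1.32 in top2-1 against wild type and -1.35 in hmo1∆;top2-1 against hmo1∆. SPG4 had 2.59 and -1.65. These 2 comparisons share no library, each value rests on a single pair of libraries, and the difference was not tested. Only genes named for extreme ratios of these same libraries were searched, so the contrast is not independent of that choice. DDR2, a stress list gene outside that search, read 21.41 CPM in wild type, 84.08 in top2-1, 426.9 in hmo1∆ and 179.3 in hmo1∆;top2-1.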

How the results depend on the processing

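No paired analysis was possible because each condition is 1 library, and for the same reason no replicate could be left out. Of 197 recomputed values 129 stayed within 1.5 times a count or inside a value's interval (0.05 for a rank correlation) and 68 moved; the cause was not tested where none is named. Requiring a peak centre in the region left 266 (control) and 240 (TopA) regions, and 14 and 16 ribosomal protein genes; peaks under 3000 bp alone left 482 and 523 regions. Top2 anchors counted by midpoint left 481 regions and clusters of 3 or more tags 230. In the order wild-type control, mutant control, wild-type TopA, mutant TopA, summits per kb were 0.1318, 0.1094, 0.1469 and 0.2055 with nucleosomes at or above the median summit value, and 0.1922, 0.2285, 0.2261 and 0.2176 below the median fuzziness, so the order of the lists depends on this choice; wild-type TopA was 0.3109 without regions holding another feature. Regions with no base under a nucleosome were 86.35%, 79.21%, 84.05% and 87.27%, against 92.54%, 88.05%, 90.91% and 91.9% without a summit. The ratio of tandem to coding density was 0.0942, 0.135 and 0.102 as the median of chromosomes in the first 3 lists, and 0.0796, 0.131, 0.0909 and 0.246 without the 35 regions of 3000 bp or more; these ratios, and the count without the stress list, were added after seeing the data.

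Library totals and TPM moved the median of all genes by -0.249 and -0.309 (log2) in hmo1∆ against wild type, so counts and signs of medians depend on the scaling, while the median with a control peak stayed above (hmo1∆ against wild type, hmo1∆;top2-1 against top2-1) or below (the other comparisons) that without. With library totals, higher and lower genes in that comparison were 135 and 218 downstream and 128 and 254 upstream; with TPM, 117 and 238, and 112 and 271. Medians with and without a control peak were -0.154 and -0.304 with totals and -0.221 and -0.359 with TPM; in hmo1∆;top2-1 against top2-1 -0.067 and -0.12, and -0.094 and -0.149; in top2-1 against wild type 0.026 and 0.034, and -0.041 and -0.034; in hmo1∆;top2-1 against hmo1∆ 0.1 and 0.209, and 0.062 and 0.171. In that last comparison totals gave 54 higher and 47 lower downstream and 52 and 47 upstream genes; TPM gave 32 higher downstream and 30 higher and 48 lower upstream; no filter gave 33 higher downstream and 37 upstream. In top2-1 against wild type no filter gave 15 lower downstream, 40 higher and 19 lower upstream; a mean of 100 counts gave 4, 8 and 3; TPM gave 10 higher upstream. DESeq2 size factors (DESeq2 1.42.0) and a prior count of 0.5 moved no count by 1.5 times. The depth of the ChIP and ChIA-PET libraries is unknown. Positions of frames that only the RNA files name were not used here, so that part of the feature filter was not run.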

Other observations

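Hmo1 peaks were also more frequent beside highly expressed upstream genes. In 4 equal groups by the upstream gene's TPM in wild type at 37 °C, control peaks lay in 37.0%, 34.1%, 39.51% and 48.01% (44.12 to 51.92) of the tandem regions from lowest to highest, and TopA peaks in 36.39%, 34.86%, 43.49% and 48.47%. Nucleosome summits in the wild-type control list went from 10.86% of regions in the lowest to 3.517% in the highest group, and in top2-1;top1∆ with the control plasmid from 14.37% to 8.563%. The median TPM was 15.84 in the lowest and 244.6 in the highest group.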
